A study of Mus musculus with 18 samples.

Results

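The genes described here encode enzymes of phase II conjugation: the glutathione S-transferases (Gst), the UDP-glucuronosyltransferases (Ugt) and the sulfotransferases (Sult). They were chosen by gene symbol alone, as every gene of the deposited count table whose symbol begins with Gst and a class letter (a, k, m, o, p, t or z), with Ugt1, Ugt2 or Ugt3 and a subfamily letter (a or b), or with Sult and a number. The symbols gave 52 of 20105 genes, namely 21 Gst, 12 Ugt and 19 Sult genes, and 46 of the 52 had counts in all 6 groups of libraries. Nuclear RNA came from livers of 6 female HEP-INTACT mice, whose hepatocyte nuclei carry a tag that an immunoprecipitation (IP) can pull down from dissociated liver. According to the labels, 3 mice fasted for 16 h from the onset of their active phase at zeitgeber time 12, and 3 fed ad libitum were killed at the same time of day. Each mouse gave an IP library from fresh liver, a library of the nuclei left in the supernatant of that IP, and an IP library from frozen liver, which makes 18 libraries in 6 groups of 3. The fed controls carry the tag too, and the labels used here give neither the driver that places it in hepatocytes nor the age of the mice.

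Conjugation makes lipophilic drugs, toxins, steroids, bile acids and bilirubin more soluble, so that they can leave the cell by efflux transport. Gst enzymes attach glutathione to electrophiles, Ugt enzymes attach a sugar, usually glucuronic acid, taken from a UDP-sugar, and Sult enzymes attach sulfate taken from the donor PAPS. The liver is the main site of all 3 reactions, and many of the genes lie in tandem clusters of close paralogs. The Ugt enzymes sit in the membrane of the endoplasmic reticulum, and most of the others described here are cytosolic.

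Total counts ran from 13828945 to 54434263 per library, with the lowest in the frozen IP library of fed mouse B. The gene length deposited with the counts was the whole span of each gene. Counts were therefore taken to include introns, and with them unspliced nuclear transcripts, though the counting tool was not given. The 10 hepatocyte markers summed to 12016 to 18733 CPM (counts scaled to the size of each library) in fed fresh IP and to 490 to 858 CPM in the supernatant of the same mice, and the 8 Kupffer cell and macrophage markers to 5.95 to 16.3 CPM and 4771 to 6783 CPM. The hepatocyte list was thus higher and the macrophage list lower in IP. The 7 cholangiocyte markers also summed higher in IP, to 559.8 to 578 CPM beside 13.1 to 15.6 CPM in the fed supernatant. Nearly all of that sum came from Pkhd1, at 563 ± 10.04 CPM (SD, n = 3) in fed fresh IP, whereas Krt19, Krt7 and Epcam had means of 0.0677, 0.144 and 0.116 CPM there. Library letters A, B and C in the table were taken to mark the mouse within a feeding state. The same letter deviated together in fresh and frozen IP (r = 0.555 to 0.902 across genes) and in IP and supernatant (r = 0.152 to 0.437). Different letters gave -0.586 to 0.00991. Deviations within a group of 3 sum to 0, so positive values for the same letter force those of different letters down on average. The latter therefore add no separate evidence. The labels give mouse numbers in place of letters, and the library number of 1 frozen fed sample lies apart from the others'. No column name states which library it is. Among the labels that sample stands last, and frozen fed B stands last among the columns used, so the order points to B. Fed B also had the lowest r of the same letter between fresh and frozen IP, 0.555. In bulk nuclei, fewer cells of a type and less RNA per cell cannot be told apart.

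The conjugation genes together took 0.504 to 0.525% of all counts in fed fresh IP and 0.256 to 0.312% in fasted fresh IP. In frozen IP the share was 0.469 to 0.496% fed and 0.234 to 0.292% fasted, and in the supernatant it was 0.0208 to 0.0258% fed and 0.0193 to 0.0245% fasted. Both IP preparations therefore had non-overlapping fed and fasted shares, and the supernatant ranges overlapped. Marker sums moved with fasting too. The cholangiocyte list went from 559.8 to 578 CPM fed to 196 to 247 CPM fasted in fresh IP and from 575 to 664 CPM to 221 to 289 CPM in frozen IP, with Pkhd1 lower in both (log2 fold change -1.33, adjusted p = 0.00107, and -1.22, adjusted p = 0.0023). The 8 stellate cell and fibroblast markers went from 69.8 to 127 CPM to 50.7 to 66.3 CPM in fresh IP and from 76.4 to 119.8 CPM to 54.6 to 67.2 CPM in frozen IP. The hepatocyte list, at 17840.4 to 25973 CPM in fasted fresh IP and at 12648 to 17727 CPM fed and 16501 to 23373 CPM fasted in frozen IP, had overlapping groups in both. The part of these markers in the lower shares was not tested. By family, the Gst genes summed to 1777 ± 248 CPM (SD, n = 3) in fed and 804 ± 28.4 CPM in fasted fresh IP. The Ugt genes summed to 1604 ± 3.95 CPM and 1166 ± 173 CPM, and the Sult genes to 2349 ± 414 CPM and 1155 ± 205 CPM. In frozen IP the sums went from 1509 ± 97.5 to 702 ± 57.5 CPM for Gst, from 1485 ± 151 to 1062 ± 195 CPM for Ugt and from 2242 ± 386 to 1060.4 ± 211 CPM for Sult genes. In each family and both IP preparations, every fasted library was below every fed one. Single genes weighed heavily in the Gst and Sult sums. In fresh IP Gsta3 averaged 922 ± 133 CPM fed and 250 ± 73.6 CPM fasted. Sult2a8 read 976 to 1169 CPM fed and 92.4 to 159 CPM fasted there.

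Per gene, the low-count filter left 42 of the 52 genes for the fasting test in fresh IP, of which 16 were lower and 1 was higher in fasted mice (edgeR quasi-likelihood test, adjusted p under 0.05 over all genes tested). Among all 12548 genes tested, 12.6% were lower and 12.4% higher. The median log2 fold change of the 42 genes was -0.85, and that of all genes tested was 0.01. In frozen IP, 17 of 43 were lower and 2 higher, against 11.6% and 11% of all genes, with a median of -0.81 beside 0.01. In the supernatant, 2 of 37 were lower and 1 was higher, against 2.84% and 3.38% of all genes (6.22% in either direction), with a median of -0.13 beside 0.00. The 15 genes lower in both IP preparations were 7 Gst, 3 Ugt and 5 Sult genes, 1 Gst gene was higher in both, and 0 moved in opposite directions. Both preparations came from the same 6 mice, and 0 of all 13162 genes tested differed in fasting response between them by edgeR. The share of all genes called in both was not computed, so this overlap is not shown to be particular to conjugation genes. Without one library at a time, 11 to 20 were lower in fresh IP and 11 to 17 in frozen IP, where the count of 11 was that without fasted library C.

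All 3 fasted values lay below all 3 fed values for 19 of the 42 genes tested in fresh IP, against 22.3% of all genes, and above them for 1, against 22.5%. In frozen IP the numbers were 18 of 43, against 21.4%, and 2, against 23.7%. In the supernatant they were 9 of 37, against 14%, and 3, against 15.1%.

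**Figure D1:**
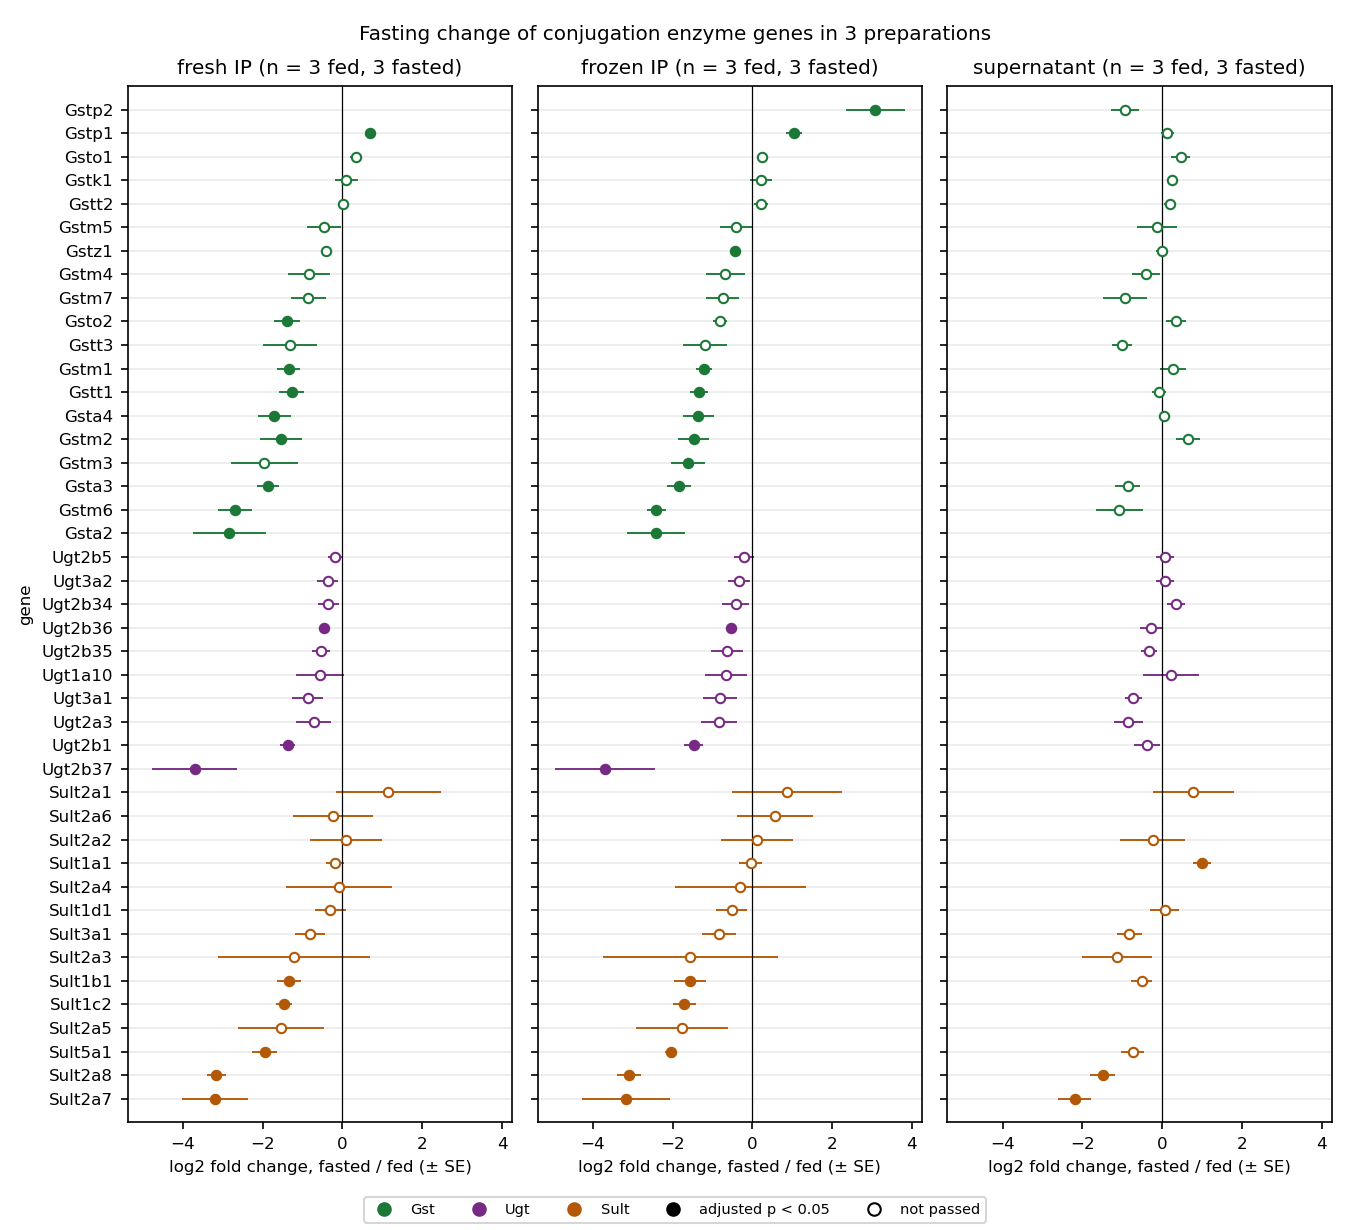
Log2 fold change of fasted over fed mice (x axis, ± SE, 3 against 3 libraries) for each conjugation gene tested in frozen IP (y axis), in fresh IP, frozen IP and supernatant; filled points passed the adjusted p threshold of 0.05. In both IP panels the filled points of all 3 families lie left of 0 except Gstp1 and Gstp2, and in the supernatant 3 Sult points are filled.

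The alpha class Gst genes encode enzymes that act on oxidised lipids and on epoxides such as that of aflatoxin. Gsta3, at chr1:21240585-21265575 on the plus strand of mm10, was the most abundant Gst gene of fed hepatocyte nuclei per kb of gene span. Gsta3 stood at 769, 994 and 1003 CPM in the fed mice and 189, 231 and 332 CPM in the fasted mice in fresh IP. In frozen IP Gsta3 read 690.4, 845 and 866 CPM fed against 154, 213 and 308 CPM fasted. Both preparations placed every fasted library well below every fed one, with fasted library C the highest of the fasted. Gsta3 thus had a log2 fold change of -1.86 (SE 0.27, adjusted p = 0.00217) in fresh IP and -1.83 (SE 0.31, adjusted p = 0.00314) in frozen IP. In the supernatant Gsta3 read 21.2, 30.6 and 25.7 CPM fed against 13.5, 9.84 and 19.2 CPM fasted, with a log2 fold change of -0.87 (SE 0.32, adjusted p = 0.0776). There too the groups did not overlap, and the difference did not pass the test in edgeR. DESeq2 passed it at an adjusted p of 0.00752, as did edgeR without fasted library C at 0.0398.

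The stretch of 150 bases before the annotated start of Gsta3 is shown because Gsta3 carries the largest Gst signal and is 1 of 2 conjugation genes whose promoter holds the core of the antioxidant response element, TGACNNNGC, the binding sequence of the stress regulator Nrf2. It spans chr1:21240435-21240584 on the plus strand (RefSeq, GRCm38.p6), 5′ to 3′, with the motif in capitals.
Gsta3: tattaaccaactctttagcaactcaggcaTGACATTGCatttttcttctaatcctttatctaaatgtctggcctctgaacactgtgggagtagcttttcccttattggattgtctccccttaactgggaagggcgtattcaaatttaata

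Gsta4, which conjugates the lipid peroxidation product 4-hydroxynonenal, read 6.98, 13.84 and 6.73 CPM in the fed mice and 2.19, 2.33 and 3.77 CPM in the fasted mice in fresh IP. In frozen IP Gsta4 read 6.18, 11.1 and 6.85 CPM fed against 2.797, 2.24 and 4.32 CPM fasted. Fed library B was the highest in both, and the groups did not overlap in either. Gsta4 had a log2 fold change of -1.71 (SE 0.41, adjusted p = 0.012) in fresh and -1.35 (SE 0.38, adjusted p = 0.0213) in frozen IP. Its supernatant values were 1.69, 1.87 and 1.44 CPM fed against 1.76, 1.71 and 1.74 CPM fasted, a log2 difference of 0.05, with all 6 libraries between 1.44 and 1.87 CPM. Gsta2, a close relative that acts on organic peroxides, read 18.2, 31.8 and 3.93 CPM in the fed mice and 2.93, 2.62 and 1.77 CPM in the fasted mice in fresh IP. In frozen IP Gsta2 read 17.4, 21.5 and 4.43 CPM fed against 2.62, 3.33 and 2.07 CPM fasted. Fed library C was far below the other fed libraries and still above every fasted library. Gsta2 had a log2 fold change of -2.83 (SE 0.92, adjusted p = 0.0192) in fresh and -2.41 (SE 0.74, adjusted p = 0.0163) in frozen IP, and 49.8% of its 50-base words occur in other genes, mostly Gsta1. In fresh IP the Gsta2 call was lost without fed library B (adjusted p = 0.0525), fasted A (0.0633) or fasted C (0.0583), and that of Gsta4 without fasted A (0.0529). In frozen IP the Gsta2 call was lost without fasted A (0.0644) or C (0.0566), and that of Gsta4 without fasted A (0.082) or B (0.0573).

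The mu class genes form a cluster on chromosome 3 and encode enzymes with broad action on electrophilic drugs and carcinogens. All 7 were tested in both IP preparations, all 7 fold changes were below 0, and Gstm1, Gstm2 and Gstm6 passed the test in both. Gstm1, at chr3:108012250-108017973 on the minus strand, read 64.4, 128 and 79.9 CPM in the fed mice and 37.7, 33.3 and 34.2 CPM in the fasted mice in fresh IP. In frozen IP Gstm1 read 64.6, 105 and 81.7 CPM fed against 35.9, 37.7 and 34.9 CPM fasted. The fasted libraries were tightly grouped, and all were below the fed ones, among which B was the highest. Its log2 fold change was -1.35 (SE 0.30, adjusted p = 0.00737) in fresh and -1.21 (SE 0.21, adjusted p = 0.00385) in frozen IP, and 18.9% of its words are shared with other genes. Gstm6 read 11.9, 25.8 and 10.3 CPM in the fed mice and 1.9999, 2.85 and 2.36 CPM in the fasted mice in fresh IP. In frozen IP Gstm6 read 11.8, 18.2 and 11.6 CPM fed against 2.77, 2.76 and 2.28 CPM fasted. It showed the largest mu class fold change, -2.69 (SE 0.43, adjusted p = 0.00295) in fresh and -2.40 (SE 0.23, adjusted p = 0.000948) in frozen IP, with no overlap of the groups, and it shares 5.97% of its words. 

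Gstm2 read 8.79, 15.99 and 5.503 CPM in the fed mice and 4.77, 3.01 and 2.33 CPM in the fasted mice in fresh IP. In frozen IP Gstm2 read 9.79, 14.2 and 6.51 CPM fed against 4.69, 3.38 and 2.81 CPM fasted. The highest fasted and the lowest fed library were close, but the groups did not overlap in either preparation. The log2 fold change of Gstm2 was -1.54 (SE 0.53, adjusted p = 0.0312) in fresh and -1.46 (SE 0.39, adjusted p = 0.0162) in frozen IP. Gstm3, with 28.8% of its words shared, had -1.95 (SE 0.84, adjusted p = 0.0669) in fresh IP and -1.61 (SE 0.42, adjusted p = 0.0191) in frozen IP, and only the second passed the test. Gstm4, Gstm5 and Gstm7 had log2 fold changes of -0.85, -0.46 and -0.85 in fresh IP and of -0.68, -0.41 and -0.74 in frozen IP, none past the threshold. The fresh IP call of Gstm2 was lost without fed library A or B or fasted library B or C (adjusted p 0.0609 to 0.0833), and its frozen IP call without fasted C (0.0504). The frozen IP call of Gstm3 was lost without fasted B (0.0557) or C (0.0593) and with all 18 libraries in 1 fit (0.0545).

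Gstt1, a theta class enzyme that acts on small halogenated compounds such as dichloromethane, shares 0 words with other genes. Gstt1 stood at 79.7, 108 and 72.9 CPM in the fed mice and 46.1, 35.3 and 24.5 CPM in the fasted mice in fresh IP. In frozen IP Gstt1 read 66.7, 68.99 and 58.4 CPM fed against 30.02, 27.8 and 18.6 CPM fasted. The fasted group was below the fed group without overlap, with a log2 fold change of -1.27 (SE 0.31, adjusted p = 0.0101) in fresh and -1.34 (SE 0.23, adjusted p = 0.0035) in frozen IP. Its neighbour Gstt2 was at 46.5, 54.1 and 46.2 CPM fed and 45.3, 46.4 and 53.2 CPM fasted in fresh IP, a log2 difference of 0.002 (SE 0.10), and the groups overlapped. Gstt3 had -1.31 (SE 0.67, adjusted p = 0.0831) in fresh IP and -1.19 (SE 0.56, adjusted p = 0.0717) in frozen IP. DESeq2 called Gstt3 lower in both (adjusted p = 0.0121 and 0.013). Of its span, 93.7% lies under another annotated gene of the same strand.

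Gstz1, the maleylacetoacetate isomerase of tyrosine breakdown, was the next most abundant Gst gene per kb after Gsta3. Gstz1 stood at 458, 535 and 423 CPM in the fed mice and 355, 380.1 and 310.2 CPM in the fasted mice in fresh IP. In frozen IP Gstz1 read 403, 389 and 377 CPM fed against 286, 309.98 and 270.4 CPM fasted. Fed and fasted groups did not overlap in either, and the drop was small, -0.42 (SE 0.13, adjusted p = 0.0645) in fresh and -0.43 (SE 0.06, adjusted p = 0.0358) in frozen IP. The frozen IP call did not survive the loss of any of its 6 libraries (adjusted p 0.0561 to 0.122), and in fresh IP Gstz1 passed with DESeq2 (0.0236) and with all 18 libraries in 1 fit (0.0171). Gsto2, an omega class enzyme linked to the recycling of ascorbate, read 1.22, 1.801 and 1.08 CPM in the fed mice and 0.63, 0.347 and 0.557 CPM in the fasted mice in fresh IP. In frozen IP Gsto2 read 1.04, 0.789 and 0.728 CPM fed against 0.549, 0.444 and 0.461 CPM fasted. The Gsto2 groups did not overlap in either, and the log2 fold change was -1.39 (SE 0.32, adjusted p = 0.0264) in fresh IP and -0.81 (SE 0.17, adjusted p = 0.104) in frozen IP, where it did not pass. Its fresh IP call was lost without any library but fed C (adjusted p 0.0531 to 0.0777), and all of Gsto1 and Gsto2 lies within the gene Cfap43 of the opposite strand. Gsto1 and the mitochondrial and peroxisomal Gstk1 had log2 fold changes of 0.34 and 0.10 in fresh IP, neither past the threshold.

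Gstp1, the pi class enzyme, was called higher in both IP preparations, the one conjugation gene of which this held when each preparation was filtered and fitted on its own. With no filter, Gstp1, Gstp2 and Sult1e1 were called higher in both. Gstp1 stood at 7.21, 8.698 and 8.35 CPM in the fed mice and 13.5, 11.7 and 13.3 CPM in the fasted mice in fresh IP. In frozen IP Gstp1 read 7.25, 5.05 and 6.81 CPM fed against 12.3, 11.96 and 15.8 CPM fasted. Every fasted library was above every fed one in both, and in the supernatant the groups overlapped, at 4.57, 3.68 and 3.699 CPM fed against 4.23, 3.81 and 5.09 CPM fasted. Fasted over fed, Gstp1 had a log2 fold change of 0.69 (SE 0.11, adjusted p = 0.0133) in fresh IP, 1.05 (SE 0.20, adjusted p = 0.00895) in frozen IP and 0.13 (SE 0.16, adjusted p = 0.693) in the supernatant. The fresh IP call was lost without fasted library A (adjusted p = 0.0558). Its neighbour Gstp2 had raw counts of 2, 2 and 2 fed and 24, 11 and 22 fasted in fresh IP, too few to pass the filter there. With no filter it had a log2 fold change of 3.15 (adjusted p = 0.0119) in fresh IP. In frozen IP the counts of Gstp2 were 2, 0 and 6 fed and 33, 12 and 43 fasted, with a log2 fold change of 3.08 (SE 0.74, adjusted p = 0.0209). Gstp2 was higher in every fasted than in every fed IP library of either preparation, on few counts. The frozen IP call of Gstp2 was lost without fed A (0.0674), fasted A (0.0686) or fasted C (0.0621). Of the 50-base words of Gstp2, 54.3% occur in other genes and 49.1% in Gstp1, so that reads of the pair cannot be fully told apart.

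The stretches of 150 bases before the starts of Gstp1 (chr19:4037913-4038062, minus strand) and Gstp2 (chr19:4042222-4042371, minus strand) are shown because these 2 neighbours were the conjugation genes called higher in an IP preparation when each was filtered and fitted on its own. They are 70.9% identical over 165 aligned columns. Capitals mark their longest shared run, of 34 bases, which contains a match to the AP-1 motif TGANTCA.
Gstp1: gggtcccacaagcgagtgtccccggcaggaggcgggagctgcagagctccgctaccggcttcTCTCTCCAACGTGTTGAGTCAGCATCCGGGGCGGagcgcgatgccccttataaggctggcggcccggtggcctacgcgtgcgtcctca
Gstp2: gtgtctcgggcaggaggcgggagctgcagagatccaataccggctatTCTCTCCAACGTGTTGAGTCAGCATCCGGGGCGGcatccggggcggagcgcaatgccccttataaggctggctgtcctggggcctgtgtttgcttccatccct

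Among the Ugt genes, Ugt2b5 and Ugt2b36 were the most abundant per kb of span in fed fresh IP, with 26.6 ± 3.38 and 15.1 ± 2.09 CPM per kb (SD, n = 3). Enzymes of the 2B subfamily glucuronidate steroids, bile acids and many drugs, and their genes form a cluster on chromosome 5. Ugt2b5 stood at 367, 392 and 467 CPM in the fed mice and 385, 398 and 284 CPM in the fasted mice in fresh IP. In frozen IP Ugt2b5 read 279, 355 and 423 CPM fed against 328, 351 and 232 CPM fasted. The groups overlapped in both, with log2 fold changes of -0.18 (SE 0.19, adjusted p = 0.468) and -0.21 (SE 0.25, adjusted p = 0.486), and 41.7% of its words are shared. Ugt2b36, which shares 0.285%, read 462, 388 and 353 CPM in the fed mice and 292, 292 and 275 CPM in the fasted mice in fresh IP. In frozen IP Ugt2b36 read 389, 405 and 347 CPM fed against 272, 279 and 241 CPM fasted. Here the groups did not overlap, and the change was modest, -0.46 (SE 0.12, adjusted p = 0.0359) in fresh and -0.53 (SE 0.09, adjusted p = 0.0242) in frozen IP. The Ugt2b36 call was lost in fresh IP without any library but fed C (adjusted p 0.0721 to 0.112) and in frozen IP likewise (0.0514 to 0.0792).

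Ugt2b1, at chr5:86916639-86926503 on the minus strand, shares 0 words with other genes and was the one Ugt gene whose fall of more than 1 log2 unit kept its call in every alternative tried. Ugt2b1 stood at 58.03, 76.04 and 63.7 CPM in the fed mice and 25.9, 28.8 and 20.3 CPM in the fasted mice in fresh IP. In frozen IP Ugt2b1 read 45.6, 75.4 and 58.01 CPM fed against 22.9, 23.4 and 18.4 CPM fasted. Every fasted library was below every fed library, with a log2 fold change of -1.38 (SE 0.19, adjusted p = 0.00192) in fresh and -1.47 (SE 0.24, adjusted p = 0.00314) in frozen IP. In the supernatant Ugt2b1 read 1.399, 2.64 and 1.56 CPM fed against 1.11, 1.61 and 1.61 CPM fasted, and the groups overlapped. Ugt2b37 had the largest Ugt fold change on low and uneven levels. Ugt2b37 stood at 1.17, 5.096 and 14.5 CPM in the fed mice and 0.767, 0.424 and 0.393 CPM in the fasted mice in fresh IP. In frozen IP Ugt2b37 read 0.941, 7.03 and 14.97 CPM fed against 1.02, 0.345 and 0.409 CPM fasted. Fed library C was far above fed A in both preparations, and fed A lay next to the fasted libraries and within their range in frozen IP. The log2 fold change of Ugt2b37 was -3.71 (SE 1.07, adjusted p = 0.0204) in fresh and -3.69 (SE 1.25, adjusted p = 0.0243) in frozen IP. Its fresh IP call was lost without any one of the fasted libraries (adjusted p 0.0528 to 0.0607), and its frozen IP call without any library but fed A (0.0526 to 0.078).

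The neighbouring Ugt2b38 had counts of 0, 0 and 24 in fed and 1, 0 and 1 in fasted fresh IP, and of 0, 3 and 34 and 1, 1 and 0 in frozen IP. Nearly all of its counts thus came from fed library C, the same library in which Ugt2b37 was highest. The 150 bases before the starts of Ugt2b37 (chr5:87254789-87254938, minus strand) and Ugt2b38 (chr5:87424204-87424353, minus strand) are shown because both genes were highest in fed library C of fresh and of frozen IP. They are 78% identical over 164 aligned columns, and capitals mark their longest shared run, of 82 bases.
Ugt2b37: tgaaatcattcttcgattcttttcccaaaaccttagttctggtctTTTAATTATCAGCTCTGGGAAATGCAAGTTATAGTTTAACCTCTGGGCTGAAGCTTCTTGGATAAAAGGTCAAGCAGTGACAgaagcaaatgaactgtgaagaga
Ugt2b38: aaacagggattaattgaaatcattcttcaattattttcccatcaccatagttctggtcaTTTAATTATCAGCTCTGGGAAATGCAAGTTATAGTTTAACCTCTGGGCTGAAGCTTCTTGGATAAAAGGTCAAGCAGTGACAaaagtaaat

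The other Ugt genes did not pass the edgeR test in any preparation. DESeq2 called Ugt3a1 lower in fresh (adjusted p = 0.0148) and frozen IP (0.0446), Ugt2b35 in fresh IP (0.0359) and Ugt2a3 in frozen IP (0.0478). Ugt3a2 and Ugt1a10 were called in no alternative. In fresh IP their log2 fold changes were -0.72 for Ugt2a3, -0.35 for Ugt2b34, -0.54 for Ugt2b35, -0.87 for Ugt3a1 and -0.37 for Ugt3a2. The 3A enzymes differ from the rest in using other sugars than glucuronic acid. Ugt1a10, the one Ugt1a entry of the table, spans the whole Ugt1a locus at chr1:88055411-88220002, which also encodes Ugt1a1, the bilirubin conjugating enzyme, from a shared set of last exons. Ugt1a10 stood at 8.96, 26.1 and 20.2 CPM in the fed mice and 9.397, 8.13 and 19.2 CPM in the fasted mice in fresh IP, with 67.1% of its words shared. Its groups overlapped, and its value cannot be assigned to 1 enzyme of the locus.

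The Sult2a genes form a cluster of 8 on chromosome 7 and encode the hepatic sulfotransferases of bile acids and hydroxysteroids. Sult2a8, which sulfates bile acids, was the most abundant Sult gene per kb in fed fresh IP, at 30.3 ± 2.801 CPM per kb, and stood at 3.35 ± 0.965 CPM per kb in fasted mice. The gene lies at chr7:14410686-14446587 on the minus strand and shares 1.96% of its words with other genes. Sult2a8 read 1169, 976 and 1122 CPM in the fed mice and 109, 159 and 92.4 CPM in the fasted mice in fresh IP. In frozen IP Sult2a8 read 1177, 946 and 1075 CPM fed against 105, 177 and 94.04 CPM fasted. In the supernatant Sult2a8 read 18.9, 19.8 and 19.97 CPM fed against 9.89, 4.75 and 6.16 CPM fasted. Fed libraries were tightly grouped in all 3 preparations, and every fasted library was below every fed one. On the log2 scale Sult2a8 fell, with a fold change of -3.16 (SE 0.24, adjusted p = 0.000538) in fresh IP, -3.09 (SE 0.29, adjusted p = 0.000651) in frozen IP and -1.495 (SE 0.31, adjusted p = 0.0175) in the supernatant. The supernatant call was lost without fed library B (adjusted p = 0.0564), fed C (0.0562) or fasted C (0.0517).

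Sult2a7, at chr7:14465159-14492926 beside Sult2a8, shares 0 words with other genes. Sult2a7 stood at 52.6, 26.2 and 63.8 CPM in the fed mice and 4.08, 9.499 and 1.61 CPM in the fasted mice in fresh IP. In frozen IP Sult2a7 read 43.1, 35.8 and 52.3 CPM fed against 4.77, 9.18 and 0.691 CPM fasted. The supernatant values of Sult2a7 were 0.908, 0.752 and 1.23 CPM fed against 0.156, 0.346 and 0.124 CPM fasted. The fed and fasted groups did not overlap in any of the 3, and fasted library C was the lowest and B the highest of the fasted libraries in both IP preparations. Sult2a7 had a log2 fold change of -3.19 (SE 0.83, adjusted p = 0.0095) in fresh IP, -3.17 (SE 1.10, adjusted p = 0.0159) in frozen IP and -2.19 (SE 0.41, adjusted p = 0.0287) in the supernatant. The frozen IP call was lost without fasted A (adjusted p = 0.0662), and the supernatant call without any library but fasted B (0.0575 to 0.112) and with all 18 libraries in 1 fit (0.275).

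The 150 bases before the start of Sult2a8 (chr7:14446588-14446737, minus strand) are shown because it had the smallest adjusted p of the conjugation genes in fresh IP. They are printed in lower case throughout, since none of the 10 motifs listed further on was found in this stretch.
Sult2a8: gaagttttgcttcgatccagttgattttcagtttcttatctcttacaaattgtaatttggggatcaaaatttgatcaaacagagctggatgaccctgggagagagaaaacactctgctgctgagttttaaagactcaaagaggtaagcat

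Outside the cluster, Sult5a1, a little characterised sulfotransferase at chr8:123142847-123158280, read 141, 202 and 153 CPM in the fed mice and 34.7, 33.3 and 58.9 CPM in the fasted mice in fresh IP. In frozen IP Sult5a1 read 147, 161 and 148 CPM fed against 33.6, 32.5 and 44.7 CPM fasted. In the supernatant Sult5a1 read 2.87, 3.14 and 2.77 CPM fed against 1.65, 1.19 and 2.43 CPM fasted. The fasted libraries were below the fed ones in all 3, and the log2 fold change was -1.95 (SE 0.31, adjusted p = 0.00233) in fresh IP, -2.04 (SE 0.15, adjusted p = 0.000408) in frozen IP and -0.74 (SE 0.30, adjusted p = 0.136) in the supernatant, where it did not pass the test. All of its span lies under Gm20388 of the opposite strand, and the strand setting of the counting was not given in the sources used here.

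Sult1b1, which sulfates thyroid hormones, read 13.9, 19.3 and 13.6 CPM in the fed mice and 5.73, 8.09 and 4.36 CPM in the fasted mice in fresh IP. In frozen IP Sult1b1 read 10.98, 20.5 and 11.6 CPM fed against 5.54, 5.65 and 3.199 CPM fasted. The log2 fold change of Sult1b1 was -1.33 (SE 0.30, adjusted p = 0.00908) in fresh and -1.56 (SE 0.39, adjusted p = 0.012) in frozen IP, with no overlap of the groups in either. Sult1c2 read 7.45, 8.79 and 8.805 CPM in the fed mice and 2.74, 2.45 and 3.803 CPM in the fasted mice in fresh IP. In frozen IP Sult1c2 read 7.47, 11.1 and 10.2 CPM fed against 2.15, 2.84 and 3.81 CPM fasted. It fell without overlap too, with a log2 fold change of -1.46 (SE 0.20, adjusted p = 0.00361) in fresh and -1.70 (SE 0.29, adjusted p = 0.00446) in frozen IP. Sult1a1, the phenol sulfotransferase, was the next most abundant Sult gene per kb after Sult2a8, at 25.6 ± 5.12 CPM per kb in fed fresh IP. Sult1a1 stood at 98.4, 101 and 68.8 CPM in the fed mice and 81.9, 64.5 and 85.1 CPM in the fasted mice in fresh IP, and its groups overlapped. Sult1d1, which acts on catecholamines, and Sult3a1 had log2 fold changes of -0.31 (SE 0.38, adjusted p = 0.454) and -0.81 (SE 0.37, adjusted p = 0.0781) in fresh IP.

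**Figure D2:**
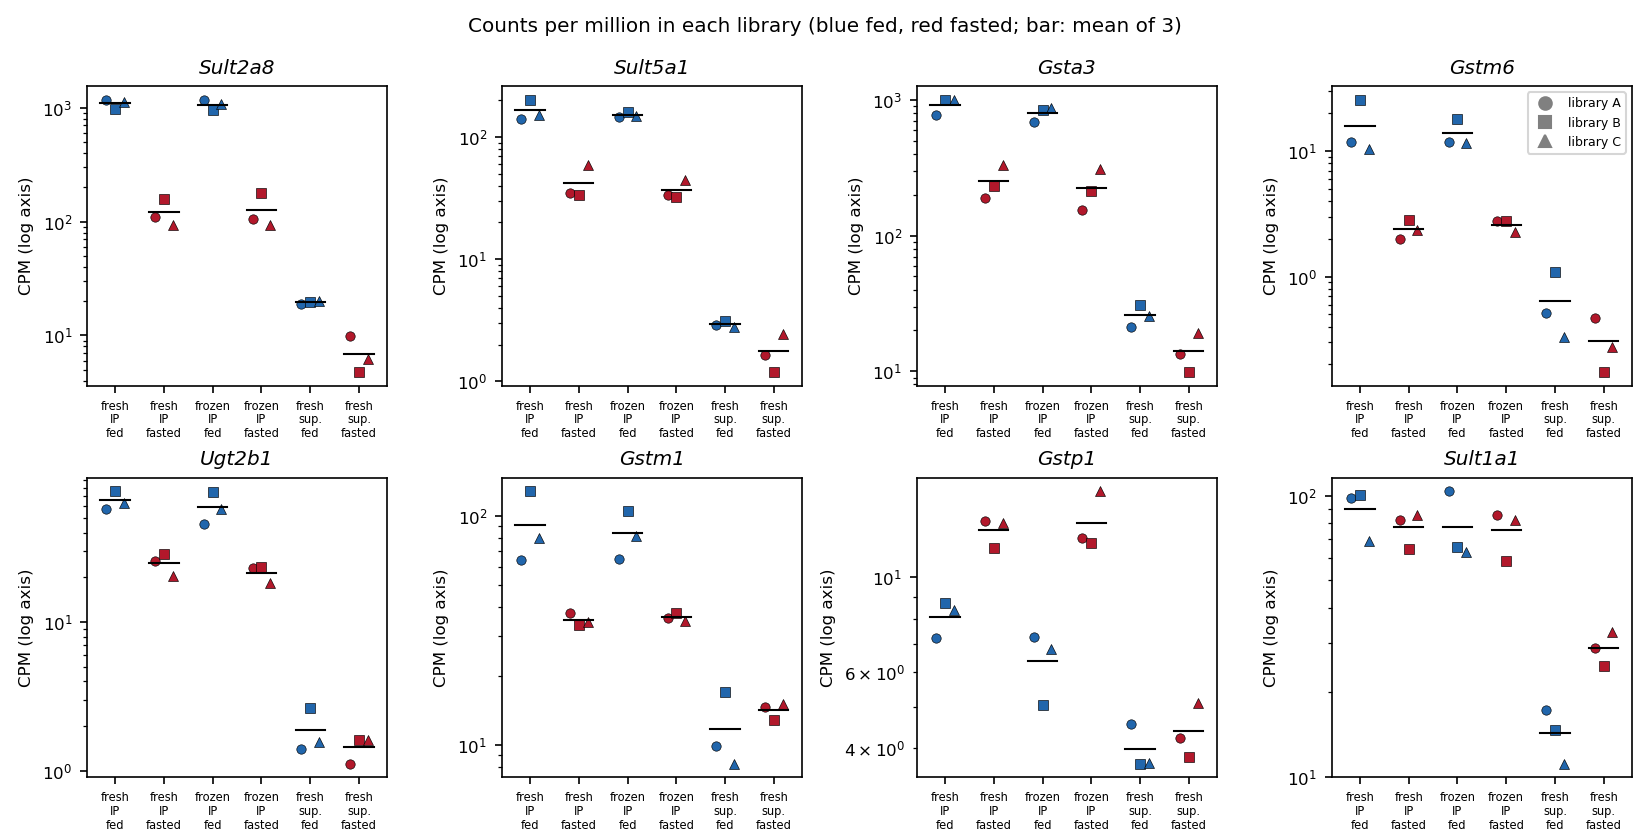
CPM on a log axis in each of the 18 libraries for 8 conjugation genes, by preparation and feeding state (x axis); circles, squares and triangles are libraries A, B and C, and bars are means of 3. Fasted libraries lie below fed libraries in both IP preparations for Sult2a8, Sult5a1, Gsta3, Gstm6, Ugt2b1 and Gstm1 and above them for Gstp1, while Sult1a1 is higher in fasted mice in the supernatant alone.

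The remaining Sult2a genes varied widely between mice of 1 feeding state. The highest fed library exceeded the lowest by more than 5 times for 9 of 42 genes in fresh IP, namely Gsta2, Gstm3, Ugt2b37 and Sult2a1 to Sult2a6, and for 7 in frozen IP, namely Ugt2b37 and Sult2a1 to Sult2a6. Among fasted mice it did so for 3 in each, namely Sult2a3, Sult2a4 and Sult2a7. The share of all genes past that ratio was not computed. Sult2a1, the sulfotransferase of dehydroepiandrosterone, read 222, 148 and 13.4 CPM in the fed mice and 411, 241 and 176 CPM in the fasted mice in fresh IP. In frozen IP Sult2a1 read 183, 166 and 11.2 CPM fed against 343, 187 and 130.2 CPM fasted. The supernatant values of Sult2a1 were 3.68, 3.27 and 0.391 CPM fed against 5.61, 3.88 and 3.23 CPM fasted. Fed library C was more than 10 times below the other fed libraries of Sult2a1 in both IP preparations, and was also the lowest in the supernatant. Sult2a2 read 630.02, 372 and 78.8 CPM in the fed mice and 424, 330.1 and 368 CPM in the fasted mice in fresh IP, and Sult2a5 66.6, 36.5 and 5.603 CPM in the fed mice and 12.6, 11.4 and 12.7 CPM in the fasted mice. Fed library C was again the lowest of the fed libraries for both, while the fasted libraries of each were close together. Sult2a3 read 90.7, 42.5 and 5.55 CPM in the fed mice and 34.2, 22.4 and 1.28 CPM in the fasted mice in fresh IP, and library C was the lowest of the fed and also the lowest of the fasted.

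Sult2a7 and Sult2a8, which lie at one end of the cluster, did not share the low value of fed library C, with 52.6, 26.2 and 63.8 CPM and 1169, 976 and 1122 CPM in fed libraries A, B and C of fresh IP. In the fasting test Sult2a1 had 1.15 (SE 1.31, adjusted p = 0.32) in fresh IP, Sult2a2 had 0.08 (SE 0.91, adjusted p = 0.927) and Sult2a5 had -1.53 (SE 1.07, adjusted p = 0.136), and the SEs are large beside the differences. Without fed library C, edgeR called Sult2a5 lower in fresh (adjusted p = 0.00271) and frozen IP (0.000849). Sult2a1 and Sult2a2 were called in no alternative. Sult2a3, Sult2a4 and Sult2a6 gave log2 fold changes of -1.22, -0.09 and -0.24 with SEs of 1.90, 1.32 and 1.002. Shared words reach 62.1% for Sult2a2 and 33.2% for Sult2a1, and are 8.36% for Sult2a3 and 6.63% for Sult2a6. Over the 42 genes tested in fresh IP, the median SD of log2 CPM among fed mice was 0.40, beside 0.20 over all genes tested, and among fasted mice 0.41 beside 0.18.

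The order of the letters recurred between preparations. The fed library with the lowest value had the same letter in fresh and frozen IP for 37 of 42 genes, and the full order was the same for 30. Among fasted libraries the lowest had the same letter for 35 of 42, and the full order was the same for 31. Fresh and frozen IP of 1 mouse are 2 samples of the same liver, so this is no replication across mice. The letters were taken to mark mice from agreement of this kind, so the recurrence is no separate evidence for that. Libraries of the same letter deviated together across 8479 genes (r = 0.555 to 0.902). The share of all genes with a recurring order was not computed, so the recurrence is not shown to be particular to conjugation genes.

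**Figure D3:**
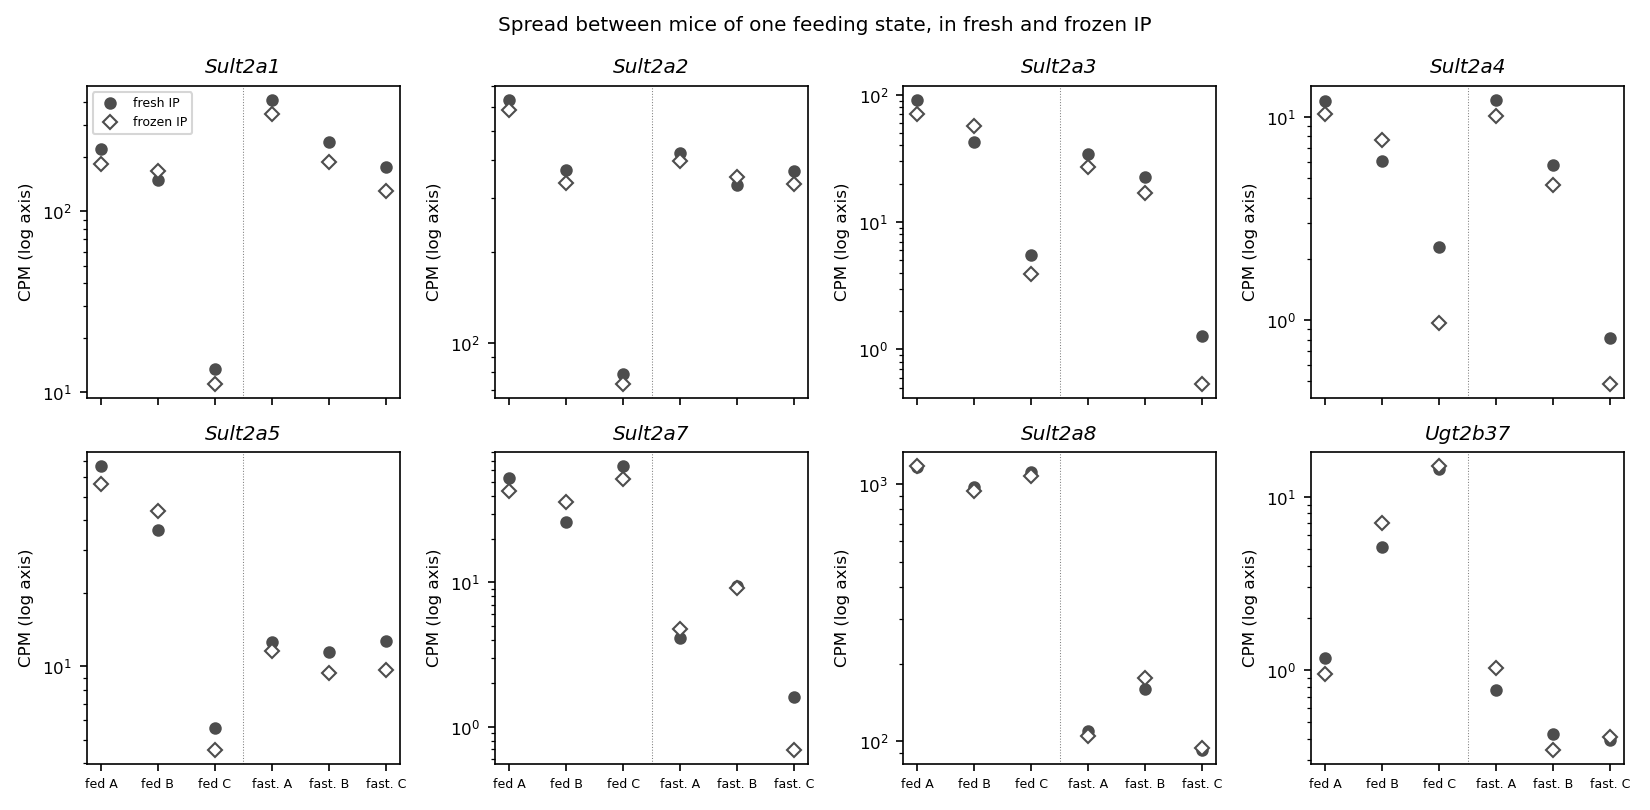
CPM on a log axis (y axis) in each fed and fasted mouse (x axis) for 7 Sult2a genes and Ugt2b37; filled circles are fresh IP and open diamonds frozen IP of the same letter. Fed mouse C is the lowest of the fed mice for Sult2a1 to Sult2a5 and the highest for Sult2a7 and Ugt2b37, in both preparations.

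Levels of the conjugation genes in IP from frozen liver were close to those from fresh liver. Between frozen and fresh IP, 0 of 44 passed the edgeR test, against 5.16% of all genes (4.72% higher and 0.441% lower), and 3 had an unadjusted p under 0.05, namely Gstt1, Gstt2 and Gstz1, all lower in frozen IP. The median log2 difference was -0.13, and that of all genes was -0.02. With the letter as a replicate block, 9 of 44 were lower and 0 higher, against 7.07% and 9.41% of all genes, and DESeq2 without the block called 1 lower. The 9 were Gstt1 (log2 difference -0.41), Gstz1 (-0.25), Sult2a1 (-0.21), Ugt2b5 (-0.21), Gsto1 (-0.20), Ugt2b1 (-0.17), Gsta3 (-0.16), Ugt3a1 (-0.16) and Ugt2b34 (-0.13). For Gstt1 the frozen-minus-fresh difference of log2 CPM by letter was -0.26, -0.65 and -0.32 in fed and -0.62, -0.34 and -0.40 in fasted mice, so that all 6 pairs were lower in frozen tissue. In the same comparison, 6 of 8 Kupffer cell and macrophage markers and 7 of 8 endothelial markers were higher in frozen IP, and the Kupffer cell list summed to 24.6 to 92.2 CPM in frozen and 5.95 to 16.3 CPM in fresh IP of fed mice. None of the 44 genes differed in fasting response between frozen and fresh IP by edgeR, with or without the block, 0 had an unadjusted p under 0.05, and the whole table gave 0% by edgeR and 0 genes by DESeq2. The part of the other cell types' RNA in the small frozen-minus-fresh differences was not tested.

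Most conjugation genes were higher in the hepatocyte IP than in the supernatant. In fresh liver, 40 of 44 genes were higher and 2 lower in IP than in supernatant, against 42% and 43% of all genes, and the median log2 difference was 4.47 beside 0.00 over all genes and 4.54 over the 10 hepatocyte markers. All 10 Ugt genes tested were higher in IP, from 4.39 for Ugt2b34 to 5.54 for Ugt1a10. Of 15 Sult genes tested 14 were higher, from 1.996 for Sult1a1 to 6.12 for Sult2a2. The Gst genes spread more widely, from 4.62 for Gsta3 down to 0.68 for Gsto1 among the 16 called higher, and 2 did not pass, Gstm5 at 0.35 (SE 0.33, adjusted p = 0.382) and Gsto2 at -0.06 (SE 0.20, adjusted p = 0.805). Gstm1 and Gstm2 of the mu class were at 2.10 and 0.93, Gstp1 was at 1.25 and Gsta4 at 1.52, below the values of Gstm6 (3.75) and Gstm7 (4.21). With the replicate block the counts were the same, 40 higher and 2 lower, against 85.4% of all genes in either direction. Gstm2 lost its call when libraries were scaled by their total counts (adjusted p = 0.052).

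The members lower in IP were Gstp2 and Sult4a1. Gstp2 read 0.0427, 0.0879 and 0.05 CPM fed and 0.658, 0.212 and 0.721 CPM fasted in IP, and 0.786, 0.467 and 0.872 CPM fed and 0.245, 0.445 and 0.422 CPM fasted in the supernatant, a log2 difference of -1.60 (SE 0.32, adjusted p = 0.00198). The gap lay in the fed mice, while in fasted mice IP and supernatant overlapped. Sult4a1, known mainly from brain, had counts of 1, 8 and 1 and 0, 0 and 1 in IP and of 9, 10 and 5 and 16, 10 and 14 in the supernatant of fed and fasted mice, a log2 difference of -2.94 (SE 0.43, adjusted p = 0.00177). Scaled to CPM, fed library B of the IP stood at 0.351, above the 0.221, 0.259 and 0.15 CPM of the fed supernatant libraries. The groups of fed mice thus overlapped, and the other IP libraries held 0 or 1 counts.

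**Figure D4:**
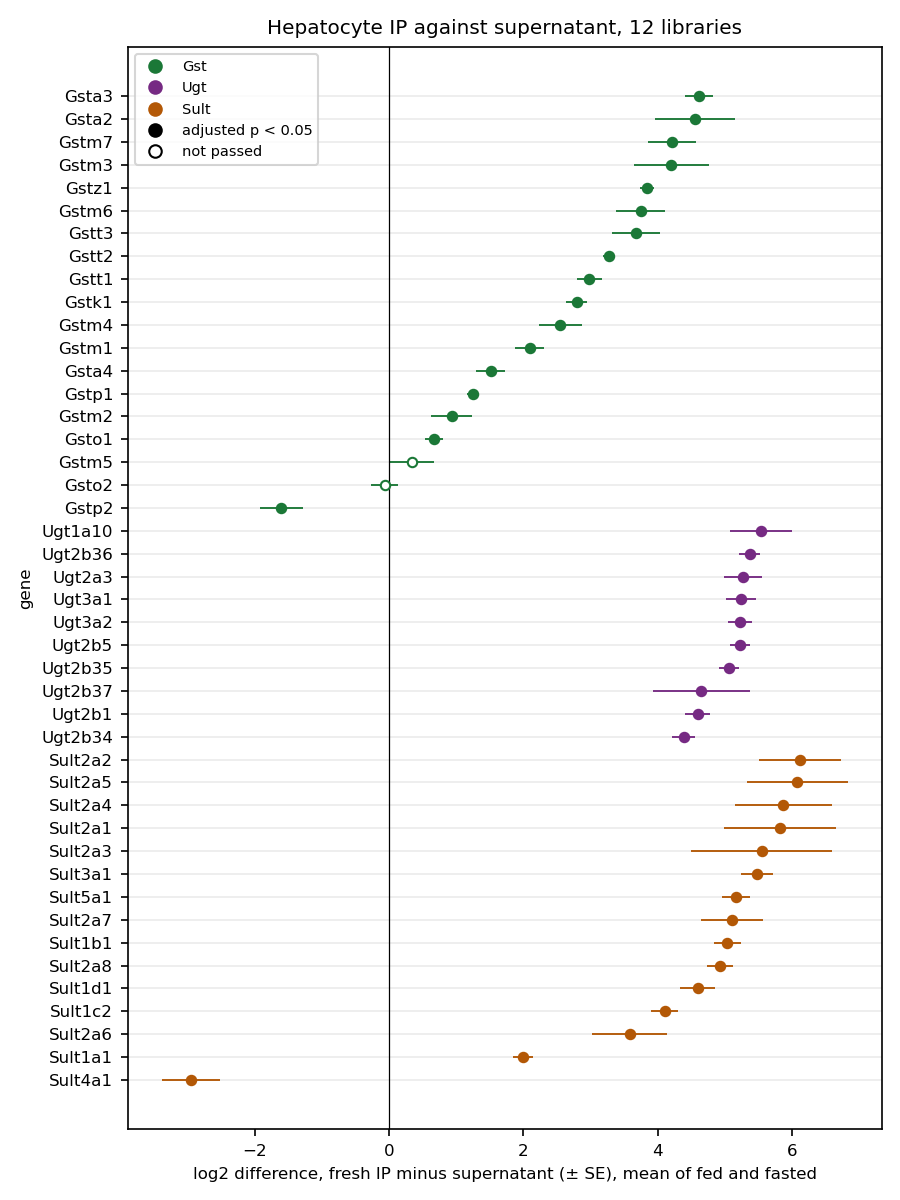
Log2 difference between fresh IP and supernatant, averaged over fed and fasted mice (x axis, ± SE, 12 libraries), for each conjugation gene tested (y axis, by family); filled points passed the adjusted p threshold of 0.05. All Ugt points lie above 4, all Sult points but Sult1a1, Sult2a6 and Sult4a1 do too, and the Gst points range from -1.60 to 4.62.

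The fasting response itself differed between IP and supernatant for 9 of 44 genes, 8 lower and 1 higher in IP, against 5.83% and 3.71% of all genes (9.54% in either direction). Gstm1 was at 9.89, 17.03 and 8.27 CPM fed against 14.7, 12.9 and 15.1 CPM fasted in the supernatant, where its groups overlapped, and fell in IP, and the difference of the responses was -1.68 (SE 0.44, adjusted p = 0.0178). Gstm2 was at 3.12, 2.46 and 1.504 CPM fed against 3.77, 3.51 and 3.92 CPM fasted in the supernatant, every fasted library above every fed one, with 0.65 (SE 0.31, adjusted p = 0.165) there and a difference of responses of -2.25 (SE 0.62, adjusted p = 0.024). Gsto2 was at 0.687, 0.959 and 0.571 CPM fed against 1.05, 1.01 and 0.77 CPM fasted in the supernatant, with overlapping groups and a difference of responses of -1.80 (SE 0.40, adjusted p = 0.0251). Gsta4, whose supernatant libraries lay close together, had -1.82 (SE 0.43, adjusted p = 0.0181). These 4 genes had fold changes of opposite sign in the fractions, as did Sult1a1 and Gstp2. None of the 4 was called in the supernatant, and Gsta4 changed sign there in 1 alternative. Of supernatant libraries, leaving out fasted A ended the call of Gsta4 (adjusted p = 0.0533), fed A or fasted A that of Gstm1 (0.0526 and 0.051), fed B or C or fasted A or C that of Gstm2 (0.0502 to 0.0578), and any but fed B and fasted C that of Gsto2 (0.0598 to 0.0739). Without fed library B of the IP the Gsto2 call was lost too (0.0545).

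Sult1a1 was the one conjugation gene called higher in the supernatant, and Gstm2 and Gstk1, which were not called, also had every fasted library above every fed one there. Sult1a1 stood at 17.3, 14.7 and 11.1 CPM in the fed mice and 28.7, 24.7 and 32.8 CPM in the fasted mice there, a log2 fold change of 0.998 (SE 0.22, adjusted p = 0.0199), with no overlap of the groups. In frozen IP Sult1a1 read 104, 65.8 and 63.1 CPM fed against 85.6, 58.5 and 82.1 CPM fasted, and the IP groups overlapped in both preparations. The difference of the responses, IP minus supernatant, was -1.25 (SE 0.31, adjusted p = 0.0118). The supernatant call was lost without fed library B (adjusted p = 0.0627), fasted A (0.076) or fasted C (0.0512), whereas the difference of responses kept its call without any one library.

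Sult2a8 fell in both fractions and by more in IP, with a difference of responses of -1.71 (SE 0.39, adjusted p = 0.0145). Sult5a1 and Gstt1 had the same signs, with differences of responses of -1.27 (SE 0.43, adjusted p = 0.0464) and -1.25 (SE 0.36, adjusted p = 0.0327), and their supernatant changes did not pass the test. The Gstt1 call was lost without fed B of the IP or any supernatant library but fed A (adjusted p 0.0501 to 0.0841), and the Sult5a1 call without any library but fed A and fasted C of the IP and fasted B of the supernatant (0.0575 to 0.167) and with RLE (0.0564) or total-count scaling (0.0632). Gstp2 was the 1 gene with a higher response in IP, 4.03 (SE 0.63, adjusted p = 0.00926), on the few counts given above. In the supernatant every fasted library of Gstp2 was below every fed one, with a log2 fold change of -0.93 that did not pass the test. Sult1a1, Sult2a8 and Gstp2 kept the call of this difference under every alternative. The count of 8 lower became 2 without fasted library A of the supernatant, 4 without fed C of the supernatant, and 5 without fed A or fasted C of the supernatant or fed B of the IP. With the replicate block it was 10 lower and 1 higher, against 6.35% and 3.87% of all genes, with Gsta3 (-1.04, adjusted p = 0.0231) and Ugt2b1 (-1.09, adjusted p = 0.0404) added. The 10 hepatocyte markers summed to 812 to 1383 CPM in the fasted supernatant and 490 to 858 CPM in the fed one. The Kupffer cell and macrophage list summed to 4771 to 6783 CPM in the fed and 3266 to 4657 CPM in the fasted supernatant. The 7 lymphocyte markers summed to 2269 to 3129 CPM fed and 1764 to 2042 CPM fasted there. The other marker lists, that of hepatocytes included, had overlapping groups. The part of the residual hepatocyte signal and of these other cell types in the supernatant response was not tested.

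Close paralogs limit which single gene a value belongs to. A 50-base word of a gene's GENCODE M21 transcripts, as long as 1 read, was counted as shared when it also occurred in another gene. Of the 52 genes, 14 shared 0 words, and 5 shared more than 50%, namely Ugt2a1 (97%), Gsta1 (90.5%), Ugt1a10 (67.1%), Sult2a2 (62.1%) and Gstp2 (54.3%). Among the genes with under 10% shared, 13 of 30 tested were lower and 0 higher in fresh IP, against 12.6% and 12.4% of all genes. The numbers were the same in frozen IP, against 11.6% and 11% of all genes. The called genes above that limit were Gsta2, Gstm1, Gstp1 and Ugt2b37 in fresh IP, with Gstm3 and Gstp2 added in frozen IP. Introns, which were taken to be part of the counted span, were not covered by this measure.

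The 6 genes without counts in every group were Gsta1, Sult1c1, Sult1e1, Sult6b1, Ugt2a1 and Ugt2b38. Sult1e1, the estrogen sulfotransferase, had counts of 5, 0 and 2 in fed and 18, 18 and 6 in fasted fresh IP, and of 3, 0 and 0 and 17, 9 and 13 in frozen IP. Every fasted library held more than every fed one, and the count filter removed Sult1e1 from the fasting tests. With no filter its log2 fold change was 2.45 (edgeR adjusted p = 0.0386) in fresh IP and 3.15 (adjusted p = 0.044) in frozen IP, and DESeq2 called it higher in both as well (adjusted p = 0.028 and 0.031). The authors' deposited table gave Sult1e1 a log2 fold change of 2.51 (adjusted p = 0.0257) in fresh IP and 3.19 (adjusted p = 0.0154) in frozen IP. In the supernatant of fed mice Sult1e1 had 0 counts, which allows up to 0.031 CPM over the group for 3 counts. Gsta1, Sult1c1, Sult6b1 and Ugt2a1 had 9 counts or fewer in any group. Gstt4 and Sult2b1, with counts in every group, had at most 7 and 23 counts per group and were removed by the count filter from every comparison. With all 18 libraries in 1 fit, Sult2b1 was called lower in frozen IP (log2 fold change -2.23, adjusted p = 0.0478).

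Promoters from RefSeq (GRCm38.p6, 250 bases before to 50 after the annotated start) were found for 45 of the 52 genes, and 44 started within 100 bases of the start in the count table. Both strands were searched. The motifs were TGACNNNGC, the core of the antioxidant response element, and GCGTG, the core of the Ah receptor site. For nuclear receptors, direct repeats of AGGTCA with 1 base between (DR1) or 4 (DR4) and the glucocorticoid receptor palindrome were included. The forkhead motif was searched as TGTTTAC. For STAT proteins TTCNNNGAA was taken, and for D-box proteins TTATGNAA. The last were the AP-1 motif TGANTCA and the promoter element TATAAA. The AP-1 motif, which can overlap the antioxidant element, was added after the sequences had been seen. The antioxidant element core was in 2 of 44 (Gsta3 and Gstm5), beside 12.4% of all 32851 promoters of the same length, and the Ah receptor core in 7, beside 32.4%. The AP-1 motif was in 8, beside 7.81% of all promoters, namely Gstm5, Gstp1, Gstp2, Sult1c1, Ugt2b1, Ugt2b35, Ugt2b37 and Ugt2b38. The forkhead motif was in 4, beside 3.65%, and STAT and D-box motifs in 2 each, beside 8.3% and 3.38%. The DR1, DR4 and glucocorticoid motifs were in 0, beside 0.0396%, 0.0152% and 0.475%, and TATAAA was in 10, beside 13.6%. A match is a description of the letters, and its absence says only that they are not in this window.

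Genes that supply the cofactors were read in the same samples. Of 15 such genes tested in fresh IP, 2 were lower and 1 higher, beside 25.1% of all genes called in either direction. Papss2, which makes the sulfate donor PAPS, went from 635 ± 231 CPM (SD, n = 3) fed to 168 ± 16.6 CPM fasted, a log2 fold change of -1.89 (SE 0.33, adjusted p = 0.00293), and fell by 2.06 in frozen IP. In the supernatant Papss2 rose, by a log2 change of 0.80 (SE 0.24, adjusted p = 0.0439). Ugp2, which makes UDP-glucose on the way to the glucuronic acid donor, fell in both, with -1.07 (SE 0.37, adjusted p = 0.0264) in fresh and -1.14 (SE 0.36, adjusted p = 0.0214) in frozen IP. Gsr, which regenerates reduced glutathione, rose in fresh IP by 0.48 (SE 0.12, adjusted p = 0.0287).

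Of a list of 12 genes, made of regulators of conjugation and of Por, 4 were higher and 1 lower in fresh IP, where 25.1% of all genes were called, and 3 and 1 in frozen IP, where 22.6% were. Por, which is the electron donor of the cytochromes P450 and no regulator of conjugation, rose by a log2 change of 1.72 (SE 0.31, adjusted p = 0.00448) in fresh IP, and the xenobiotic receptors Nr1i2 (PXR) and Nr1i3 (CAR) by 1.05 (SE 0.34, adjusted p = 0.0224) and 0.86 (SE 0.25, adjusted p = 0.0226). The estrogen receptor Esr1 fell, at -1.35 (SE 0.36, adjusted p = 0.0126). Of 17 other phase II enzymes, 2 were higher and 3 lower in fresh IP, a share near the 25.1% of all genes. Inmt, which methylates indoleamines, had the largest change, -3.89 (SE 0.46, adjusted p = 0.00106), and the microsomal glutathione transferase Mgst3 fell, at -1.68 (SE 0.54, adjusted p = 0.0293). Ephx2, the soluble epoxide hydrolase, and As3mt, the arsenic methyltransferase, rose by 1.66 (SE 0.30, adjusted p = 0.00368) and 1.30 (SE 0.36, adjusted p = 0.0128).

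Of 11 efflux transporters and deconjugating enzymes, 3 were lower and 0 higher in fresh IP and 1 was lower in frozen IP, beside 12.6% and 11.6% of all genes called lower. The 3 were the drug pump Abcb1a at -0.91 (SE 0.34, adjusted p = 0.0407), the bile salt export pump Abcb11 at -0.75 (SE 0.22, adjusted p = 0.03), and Abcc6 at -0.49 (SE 0.06, adjusted p = 0.0237). Of 10 well known targets of the xenobiotic receptors and Nrf2, 2 were higher and 2 lower in fresh IP, and likewise in frozen IP, beside 25.1% and 22.6% of all genes called in either direction. Cyp1a2, the classic Ah receptor target, and Cyp2c55 fell, with log2 fold changes of -2.97 (SE 0.34, adjusted p = 0.00105) and -1.99 (SE 0.45, adjusted p = 0.0077). Cyp3a11, the PXR target, and Srxn1, the Nrf2 target, rose by 0.97 (SE 0.25, adjusted p = 0.0151) and 0.93 (SE 0.33, adjusted p = 0.0324). None of the 5 lists was tested as a list.

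In the authors' deposited table of their own comparisons, all 17 calls in fresh IP and all 19 in frozen IP made here also passed an adjusted p of 0.05 in the same direction. The authors' deposited table held 22 conjugation genes lower and 3 higher in fresh IP, and 23 lower and 3 higher in frozen IP. The share of all genes called in the authors' table was not computed, so these counts have nothing to be set beside. The authors' table rests on the same libraries and is no independent evidence.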

How the data were processed

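Values were deposited by the authors as raw counts, not normalized, for 20105 genes. Per the submitters' processing notes, the tools were STAR 2.4.2a and DESeq2 1.24.0 and the build mm10, and the counting tool, its strand setting and its handling of reads shared by paralogs are not given in the sources used here. Per the labels' protocols, libraries kept strand, involved no poly-A selection and were read as pairs of 50 bp, so unspliced RNA could be read. The gene length deposited by the authors equals end minus start in all 20105 genes. The authors also deposited log2 fold changes, adjusted p-values and normalized counts (linear signal, counts divided by a factor per library), used only where the authors' table is named. Another 6 columns of the table belonged to no sample here and were left unused.

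Counts were scaled to CPM with TMM factors over all 18 libraries. Each of 7 comparisons was fitted on its own groups with edgeR 4.0.16 in R 4.3.3 (filterByExpr by group, glmQLFit and glmQLFTest, Benjamini-Hochberg adjustment over all genes, threshold 0.05). SEs are of differences of mean log2 CPM with a prior count of 2, while the fold changes beside them are those of edgeR. The prior narrows the SEs of genes with few counts. Groups were treated as independent, also where 2 preparations of the same mice were compared, so those SEs leave out the pairing. Replicates are separate mice, 3 per feeding state. The replicate block uses the letter within a feeding state, which was taken to pair preparations of 1 mouse. Its check is given with the library totals. Within groups no libraries were near identical. Alternatives were DESeq2 1.42.0, RLE or total-count scaling, no filter, 1 fit over 18 libraries, each library left out and the block. The fits were tested on simulated data with known changes in few genes, drawn at random, and no fasting change in the others. For fasting in fresh IP, 60.2% of 2-fold and 94.9% of 4-fold changes were recovered, with 14 false calls among 12324 genes. For the difference of responses between IP and supernatant, 33% and 74% were recovered, with 7 false calls among 14129 genes. Many changes of 2-fold size were thus missed in the simulation. Far more genes were called in the real data, 25.1% in fresh IP. The conjugation genes also had a median SD between mice above that of all genes. The rates are therefore not those of the conjugation genes here, and 2-fold changes among them can be missed.

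Genes given with every library's value were those called in both IP preparations in the same direction with a log2 fold change of at least 1 in size in fresh IP, those with opposite signs in IP and supernatant and a called difference of responses, and the 2 most abundant per kb of each family in fed fresh IP. Of each pathway list, up to 4 called genes of largest fold change are named. Members outside that rule that are given by library, such as Gstp1, Gstt2, Sult2a1, Sult2a2, Sult2a3, Sult2a5 and the low-count genes, were chosen after their values were seen. The genes and lists were chosen with earlier results of these data known.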

Additional observations from a re-analysis of the deposited data

Results flagged for a closer look

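For 9 conjugation genes the fasting response differed between hepatocyte IP and supernatant of fresh liver by the test of the difference itself (edgeR, 12 libraries, adjusted p under 0.05). The log2 response in IP minus that in the supernatant was -2.25 for Gstm2, -1.82 for Gsta4, -1.80 for Gsto2 and -1.68 for Gstm1. All of these were below 0 in IP and above 0 in the supernatant, where none was called. The supernatant change of Gsta4 was 0.05, and -0.03 to 0.13 over the alternatives. A rise of these genes in the supernatant is thus not shown. It was -1.71 for Sult2a8, -1.27 for Sult5a1 and -1.25 for Gstt1, which were below 0 in both fractions. For Sult1a1 it was -1.25, with a call in the supernatant and none in IP. For Gstp2 it was 4.03, on few counts, with a response above 0 in IP and below 0 in the supernatant. Without one library at a time, the call was lost for Gsta4, Gstm1, Gstm2, Gsto2, Gstt1 and Sult5a1 in 1, 2, 4, 5, 6 and 9 of 12 cases, and in 0 of 12 for Gstp2, Sult1a1 and Sult2a8. Groups of 3 are too small for a check of single outlying libraries.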

How the results depend on the processing

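No called conjugation gene changed sign under any alternative run. Of those not called, 5 of 25 in fresh IP changed sign in at least 1 alternative (Gstk1, Gstt2, Sult2a2, Sult2a4 and Sult2a6). In frozen IP 4 of 24 did, and in the supernatant 9 of 34, with Sult2a2 at -0.40 to 0.75 in fresh IP. In at least 1 alternative, 10 of the 25 in fresh IP, 6 of the 24 in frozen IP and 3 of the 34 in the supernatant were called. Of the calls made, 10 of 17 in fresh IP, 10 of 19 in frozen IP, 0 of 3 in the supernatant, 41 of 42 between IP and supernatant and 3 of 9 in the difference of responses kept their call under every alternative. The count of genes higher in fresh IP was 1, and 3 with no filter, with DESeq2 and with all 18 libraries in 1 fit. In the supernatant the count of genes lower was 2, against 5 with DESeq2 and 1 with all 18 libraries in 1 fit. Between IP and supernatant it was 2, against 4 with no filter. With the replicate block, frozen minus fresh IP gave 9 genes lower against 0 without it, and DESeq2 gave 1. The cause of these differences was not tested. The block changed 2 further calls, both in the difference of responses. Over all genes, the called number was 866 in the supernatant against 1871 with DESeq2, 1367 in the difference of responses against 2307 with DESeq2, and 679 between frozen and fresh IP against 2168 with the block. Without one library at a time it was 1429 to 2643 in fresh IP (3145 with all), 1168 to 2271 in frozen IP (2918), 197 to 624 in the supernatant, 771 to 1485 in the difference of responses and 409 to 711 between frozen and fresh IP.

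Without one library at a time, the counts ran from 0 to 2 (higher) and 11 to 20 (lower) in fresh IP, from 1 to 2 and 11 to 17 in frozen IP, from 0 to 1 and 0 to 2 in the supernatant, and from 2 to 10 (lower) in the difference of responses. Fed and fasted mice differ, so no paired analysis was possible because a fasting contrast within 1 preparation has no mouse in both groups. A count of Ugt1a genes nested in 1 locus could not be varied, as the table holds 1 of them. With 3 mice per state, a gene that did not pass is not shown to be even. Of genes that the count filter removed, Ugt2b38 was called lower in frozen IP by DESeq2 (adjusted p = 0.0385) and not by edgeR with no filter (0.063).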
